A study of Saccharomyces cerevisiae with 4 samples.

Results

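The 2 wild-type self-hybridisations are arrays on which RNA of a wild-type yeast strain was compared with RNA labelled as the same strain, and they make up 2 of the 4 samples of the series. They were taken by sample title: 1 array for BY4741 and 1 for Snf2-2FLAG. BY4741 is a standard laboratory strain of Saccharomyces cerevisiae of mating type a, listed as wild type in both channels. The Snf2-2FLAG strain, with background PSY2 in the labels, is listed as wild type with a FLAG-tagged Snf2, again in both channels. Snf2 is the ATPase that drives the SWI/SNF nucleosome remodelling complex. Cultures of both strains, in the rich glucose medium YPD and kept at 25 C, were taken at an optical density of 0.8. The other 2 samples of the series, an snf2 null and a strain without the SnAC domain of Snf2, were set against these wild types and were not used here.

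A self-hybridisation has no genotype difference between its channels, so a gene with the same relative abundance in both RNA samples has a ratio at the median of the array. Yeast has 2 large gene programmes that move against each other with growth rate and stress. One is the environmental stress response, in which Msn2 and Msn4 drive genes for reserve carbohydrate, antioxidants and chaperones, with Hsf1 driving most chaperone genes. The other is ribosome production, which covers rRNA processing factors, RNA polymerases I and III and ribosomal proteins.

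All values below are deposited log ratios of channel 1 to channel 2, read as log2, minus the median of their own array. Base 2 is an assumption, and a fold holds only if it is right. A positive value is higher in channel 1. With 1 array per strain no value has a replicate error and no test was possible, so differences between the arrays were described and not tested. The array medians before centring were -0.12 in BY4741 and 0.10 in Snf2-2FLAG. A value was present for 5808 features in BY4741 and for 5669 in Snf2-2FLAG, and 5407 features had both, a feature being a named gene or an unnamed probe. The only repeated measurement is the set of genes with more than 1 probe. Their probes differed by a median of 0.11 over 22 genes in BY4741 and of 0.13 over 26 genes in Snf2-2FLAG, with largest differences of 0.57 and 0.30. Most values lay close to the median, and 91.5% of features in BY4741 and 75.8% in Snf2-2FLAG were within 1.2-fold of it. The SD across features was 0.16 in BY4741 and 0.25 in Snf2-2FLAG.

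A feature was counted as departing where it lay at least 1.5-fold, or 0.58 on the log2 scale, from the array median. On the BY4741 array 0.413% of features departed, 15 lower (0.258%) and 9 higher (0.155%). As deposited, without centring, these counts were 41 and 5. On the Snf2-2FLAG array 2.65% departed, 60 lower (1.06%) and 90 higher (1.59%), against 35 and 181 as deposited. Among the 5407 features with both values, 12 were lower on both arrays (0.222%) and 3 were higher on both (0.0555%). As deposited, 21 were lower and 1 higher on both. No feature departed in opposite directions. A feature was counted as departing on 1 array alone where the other array placed it within 1.2-fold of its median. That gave 13 lower (0.24%) and 42 higher (0.777%) on Snf2-2FLAG alone, and 1 lower (0.0185%) and 5 higher (0.0925%) on BY4741 alone. As deposited these were 1 and 147 for Snf2-2FLAG, and 9 and 2 for BY4741. A further 75 features departed on 1 array and were intermediate on the other, and 73 of these had the same sign on both.

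The low side was shared more than the high side. Of the 14 features with both values that were lower on BY4741, 12 were also lower on Snf2-2FLAG, or 85.7%, and the other 2 also lay below 0 there. Those 12 were 21.1% of the 57 lower features of Snf2-2FLAG, all 57 of which lay below 0 on BY4741. On the high side, the 3 shared features were 33.3% of the 9 in BY4741 and 3.49% of the 86 in Snf2-2FLAG. Most of the high features still lay above 0 on the other array, 8 of the 9 and 80 of the 86.

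**Figure D1:**
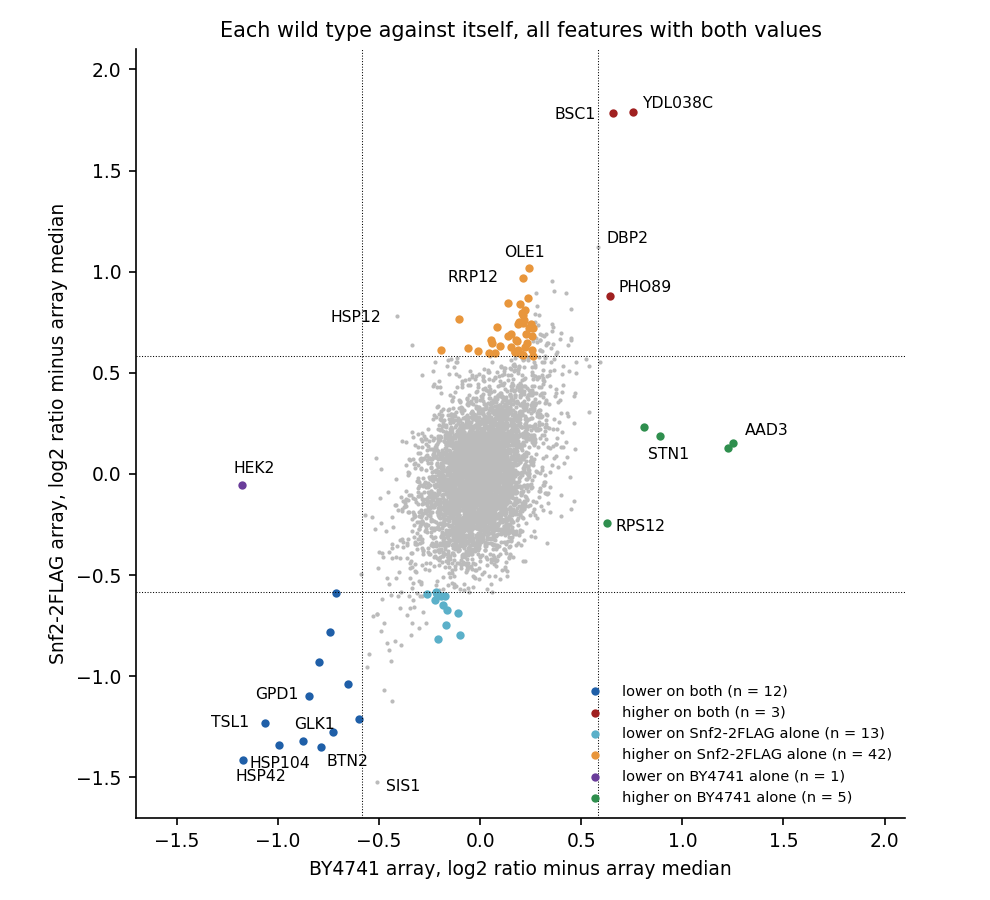
Log2 ratio minus array median on the BY4741 array (horizontal axis) and the Snf2-2FLAG array (vertical axis) for the 5407 features with both values, 1 point per feature. Dotted lines mark 1.5-fold and colours mark the classes of departing features, with features past the line on 1 array but intermediate on the other in grey. The lower left holds HSP42, TSL1, HSP104 and GLK1, BSC1 and YDL038C stand alone at the top, and the upper middle holds 42 features that departed upward on Snf2-2FLAG alone.

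Several genes that handle misfolded and aggregated proteins were among the lowest on both arrays. HSP42 (YDR171W), a small heat shock protein that gathers misfolded proteins into deposits, read -1.17 in BY4741 and -1.42 in Snf2-2FLAG, or 2.25-fold and 2.67-fold below the median. HSP104 (YLL026W), the disaggregase that pulls proteins out of such deposits, read -0.996 and -1.34. The related sorting factors BTN2 (YGR142W) and CUR1 (YPR158W), which send misfolded proteins to storage sites, read -0.79 and -1.35, and -0.73 and -1.28. These 4 genes were low on both arrays, each somewhat farther from 0 on Snf2-2FLAG. HSP78, the mitochondrial relative of Hsp104, read -0.74 and -0.78. In the list of 7 small heat shock proteins and disaggregases, 3 departed downward on each array, against 0.258% and 1.06% of all features. The list medians were -0.41 and -0.16. The Snf2-2FLAG median was -0.07 relative to genes of like coding length and -0.06 as deposited. On each array 6 of the 7 members lay below 0. HSP30 read 0.10 and -0.14 and HSP31 read -0.05 and -0.16, so not all members were far below the median.

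Most genes in the list of cytosolic Hsp70, Hsp90 and their cochaperones also lay below the median, and the lowest were mainly cochaperones. STI1 (YOR027W), which links Hsp70 to Hsp90, read -0.80 in BY4741 and -0.93 in Snf2-2FLAG. AHA1, which activates Hsp90, read -0.48 and -0.74. SIS1 (YNL007C), an Hsp40 partner of Hsp70, had the lowest value on the Snf2-2FLAG array at -1.52, against -0.51 in BY4741. The Hsp110 gene SSE2 read -0.50 and -0.46. Of 21 measured members of this list in BY4741, 19 lay below 0 and 1 departed downward, with a list median of -0.29. In Snf2-2FLAG 17 of 21 lay below 0 and 4 departed downward, with a median of -0.21, or -0.11 as deposited. Over all features 0.258% in BY4741 and 1.06% in Snf2-2FLAG departed downward. The Hsp70 genes SSA1 and SSA2 read -0.57 and -0.38 in BY4741, but -0.20 and -0.13 in Snf2-2FLAG. The Hsp90 gene HSC82 read -0.37 and -0.08. CNS1 read 0.14 and 0.35, APJ1 -0.09 and 0.30, and SSE1 -0.21 and 0.15. Of the 20 members with both values, 16 lay below 0 on both arrays, where 30.2% of all features with both values did so.

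Chaperones outside this set were closer to the median. In the mitochondrion HSP60, the chaperonin, read -0.48 in BY4741 and -0.41 in Snf2-2FLAG. SSC1, the main Hsp70 there, read -0.34 and -0.28, while the list medians were -0.04 and -0.15 with 0 of 9 members departing. KAR2, the Hsp70 of the endoplasmic reticulum, read -0.40 and -0.60 in a list with medians of 0.001 and -0.05 that were -0.12 and 0.05 as deposited. The TRiC chaperonin and prefoldin, which fold actin and tubulin, had medians of 0.07 and 0.12 over 14 genes. The Hsp70 proteins that sit on ribosomes and their partners had medians of 0.04 and 0.06 over 7 genes, and SSB1 read -0.21 and 0.43. As deposited, the BY4741 medians of these 2 lists were -0.06 and -0.08.

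HSP12 (YFL014W), a small membrane-protecting protein induced by stress, lay below the median in BY4741, where most stress genes did, and well above it in Snf2-2FLAG. It read -0.41 in BY4741 and 0.78 in Snf2-2FLAG, the largest difference between the arrays of any named gene at -1.19. HSP26, the other well-known small heat shock protein, read -0.39 and -0.11.

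Genes for reserve carbohydrate and for phosphorylating glucose were low on both arrays. GLK1 (YCL040W), glucokinase, read -0.88 in BY4741 and -1.32 in Snf2-2FLAG. Its close relative EMI2 read -0.48 and -1.07, and hexokinase 1 (HXK1) read -0.51 and -0.69. Hexokinase 2 (HXK2), the main enzyme in glucose medium, was near the median at -0.09 and -0.12. TSL1 (YML100W), a regulatory subunit of trehalose synthase, read -1.06 and -1.23, and TPS1, the catalytic synthase subunit, read -0.45 and -0.87. TPS2, the trehalose phosphatase, read -0.39 and -0.58. All 7 measured trehalose genes in BY4741 and all 5 in Snf2-2FLAG lay below 0, with medians of -0.39 and -0.58. Glycogen genes had medians of -0.23 and -0.17, and the synthase GSY2 read -0.51 and -0.69.

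For the wider list of genes that Msn2 and Msn4 control, the BY4741 median was -0.28 and the Snf2-2FLAG median -0.34. In BY4741 5 of 40 measured members departed downward and 0 upward. In Snf2-2FLAG 10 of 39 departed downward and 1, HSP12, upward. Over all features 0.258% in BY4741 and 1.06% in Snf2-2FLAG departed downward, and 0.155% and 1.59% upward. Not every member was low, and 8 of 40 in BY4741 and 9 of 39 in Snf2-2FLAG lay above 0. GPD1 (YDL022W), the first enzyme of glycerol synthesis, read -0.84 and -1.10, and PNC1 (YGL037C), a nicotinamidase, read -0.60 and -1.21. The vacuolar aminopeptidase gene APE1 (YKL103C), a member under its older name LAP4, read -0.71 and -0.59. AIM17, the next lowest named gene on both arrays, read -0.56, just short of 1.5-fold, and -0.96. Across the 38 members with both values the arrays correlated with a Pearson r of 0.79, which describes members that share the same pair of arrays. The list shares HSP104, GLK1, HXK1, TPS1 and others with the lists above, so its median is not separate evidence. Of the 12 features lower on both arrays, 11 of them named, 4 were in the chaperone lists and 6 in the stress and reserve carbohydrate lists, with HSP104 in both. BTN2, CUR1 and an unnamed probe were in none of the lists. The 2 groups of lists held 1.29% and 1.39% of all features with both values. As the lists were chosen with earlier results of these data known, these shares are only a description.

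**Figure D2:**
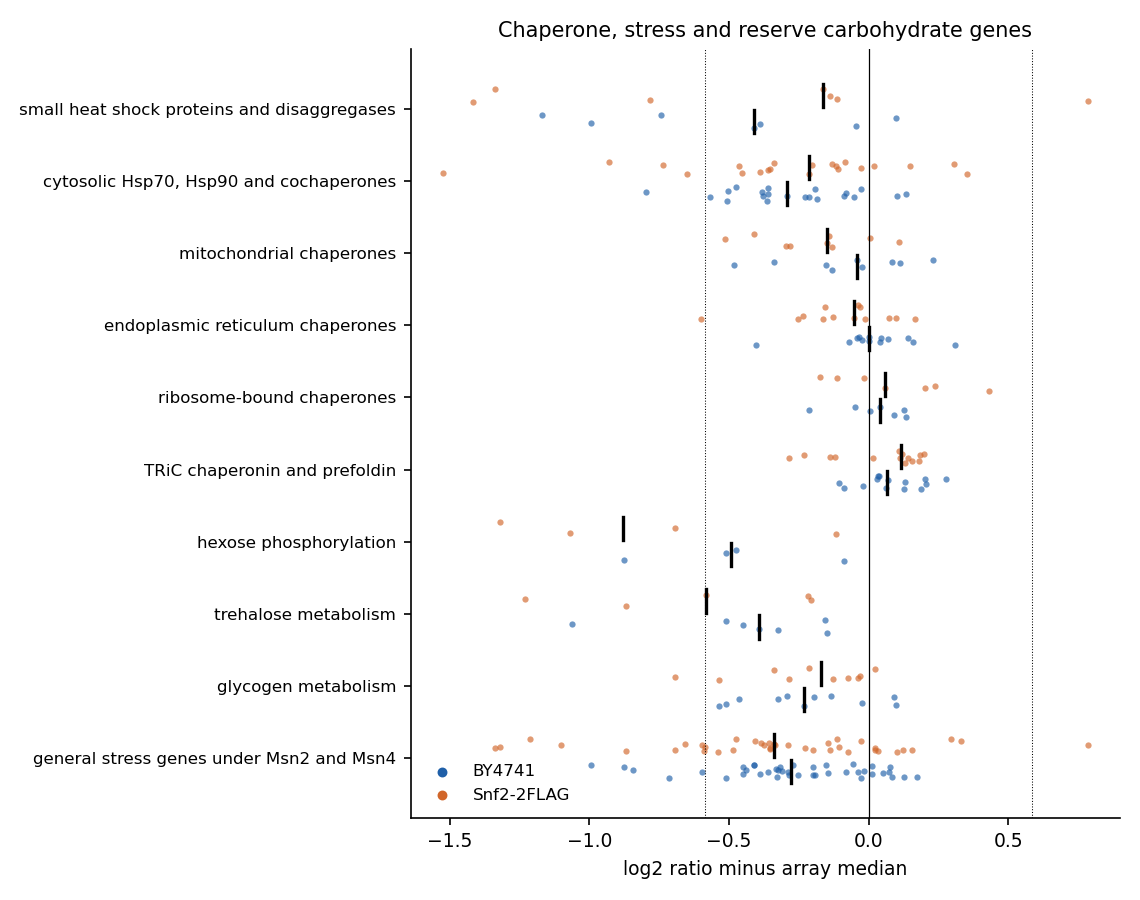
Log2 ratio minus array median (horizontal axis) for each measured member of 10 chaperone, stress and carbohydrate lists, 1 point per gene, in BY4741 (blue) and Snf2-2FLAG (orange). Black bars mark list medians and dotted lines mark 1.5-fold. Trehalose and hexose phosphorylation members all lie left of 0 on both arrays, and the lone orange point at the far right is HSP12 at 0.78.

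At the other end, a run of neighbouring genes stood apart at the top of the Snf2-2FLAG array. BSC1 (YDL037C) read 0.66 in BY4741 and 1.78 in Snf2-2FLAG. Its neighbour YDL038C read 0.76 and 1.79. PRM7, a pheromone-regulated gene, had no value in BY4741 and read 1.89 in Snf2-2FLAG. The R64 gene table gives YDL038C as a synonym of PRM7, so these probes may report on fewer than 3 transcripts. PHO89 (YBR296C), a sodium-coupled phosphate transporter, was the third feature higher on both, at 0.64 and 0.88.

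The other named genes with the highest paired values included transporters and factors of ribosome assembly, although none of them departed on both arrays. DBP2 (YNL112W), an RNA helicase, read 0.58 in BY4741, just short of 1.5-fold, and 1.12 in Snf2-2FLAG. UTP23, a factor of the small-subunit processome, read 0.59 and 0.55. FAF1, which acts in processing of small-subunit rRNA, read 0.45 and 0.66, and TRM11, a tRNA methyltransferase, read 0.45 and 0.67. ECM1, an export factor of the large ribosomal subunit, read 0.47 and 0.55, and FAP1 read 0.44 and 0.51. Among transporters, the glucose carrier HXT3 read 0.54 and 0.54 and the zinc transporter ZRT1 read 0.52 and 0.57. HXT1, the carrier used at high glucose, read 0.43 and 0.64, and HXT2 read 0.41 and 0.54. The hexose transporter list as a whole had medians of 0.09 and 0.12, and its BY4741 median turned to -0.03 as deposited. HXT genes are similar in sequence, so their probes may share signal. GIN4, a kinase that acts on septins, read 0.45 and 0.81 in a G1/S list whose medians were -0.05 and -0.18.

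Genes for rRNA processing and ribosome assembly lay above the median on both arrays, and farther on Snf2-2FLAG. Of 138 rRNA processing and assembly factors measured in BY4741, 134 lay above 0, with a median of 0.22 and a range from -0.10 to 0.59. In Snf2-2FLAG 133 of 137 lay above 0, with a median of 0.46 and a range from -0.11 to 1.12. Of the 136 with both values, 129 lay above 0 on both arrays, where 29.1% of all features did so. The count that departed upward was 1 of 138 in BY4741 and 44 of 137 in Snf2-2FLAG, against 0.155% and 1.59% of all features. All 44 had a BY4741 value, which placed 22 within 1.2-fold of the BY4741 median and the other 22 between that and 1.5-fold. For 117 of the 136 the value was farther from 0 on Snf2-2FLAG. That array was wider over all features, with an SD of 0.25 against 0.16 in BY4741, so this count is not particular to the list.

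Members of several kinds were among the high values. NSR1 (YGR159C), the yeast nucleolin, read 0.42 in BY4741 and 0.90 in Snf2-2FLAG. DHR2 (YKL078W), an RNA helicase, read 0.35 and 0.95. RRP12 (YPL012W), which helps export ribosomal subunits, read 0.21 and 0.97, and ECM16, another helicase of the processome, read 0.24 and 0.87. UTP10, a large processome subunit, read 0.14 and 0.85. The GTPase BMS1 read 0.22 and 0.81, and ENP1 of the small-subunit precursor read 0.21 and 0.79. The order of members was shared only in part, with a Pearson r of 0.30 across the 136 factors.

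RNA polymerase I, which transcribes the large rRNA precursor, was also above the median. Its 2 largest subunits read 0.25 in BY4741 and 0.74 in Snf2-2FLAG for RPA190, and 0.26 and 0.72 for RPA135. The list had medians of 0.19 and 0.28, with 14 of 16 and 14 of 17 members above 0. Genes for tRNA modification and rRNA methylation had medians of 0.17 and 0.35, with 26 of 27 above 0 in Snf2-2FLAG. RNA polymerase III had medians of 0.08 and 0.04, with its largest subunit RPO31 at 0.21 and 0.57. RNA polymerase II, which makes messenger RNA, had medians of 0.05 and -0.04. As deposited the BY4741 medians of polymerases II and III were -0.07 and -0.04, and the Snf2-2FLAG median of polymerase II was 0.06.

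Ribosomal protein genes did not lie with the assembly factors on Snf2-2FLAG. Their median was 0.12 in BY4741, with 116 of 129 above 0, and -0.09 in Snf2-2FLAG, with 107 of 130 below 0. As deposited, these medians were -0.01 and 0.01, so the side of 0 depends on the centring. The difference between the lists within each array does not: the assembly factors stood above the ribosomal proteins on both arrays. RPL29 lay at 0.05 on the BY4741 array and at -0.54 on the Snf2-2FLAG array, and RPS29A at 0.02 and -0.48. RPL41B, which encodes the smallest ribosomal protein, lay at 0.20 and 0.43, but its duplicate RPL41A lay at 0.14 and -0.41. The RPL41 copies were thus on opposite sides of the median on Snf2-2FLAG. Across 128 genes the arrays correlated with a Pearson r of -0.02. Many ribosomal proteins have near-identical duplicate genes, whose probes may report on both copies.

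Synthetases and translation factors were close to the median in BY4741 and above it in Snf2-2FLAG, and mitochondrial ribosomal proteins were below it there. Cytosolic aminoacyl-tRNA synthetases, which charge tRNAs, had a median of 0.01 in BY4741 and of 0.19 in Snf2-2FLAG, where all 21 lay above 0. Translation factors had medians of 0.05 and 0.16, with NIP1, a subunit of initiation factor eIF3, at 0.19 and 0.53 and the elongation factor gene YEF3 at 0.12 and 0.45. As deposited both BY4741 medians lay below 0. The Snf2-2FLAG medians relative to genes of like coding length were 0.12 for the synthetases and 0.18 for the translation factors. Mitochondrial ribosomal proteins had medians of -0.01 and -0.22, and 61 of 66 lay below 0 in Snf2-2FLAG. Relative to genes of like coding length that Snf2-2FLAG median was -0.11, and as deposited -0.12. The single departing gene of the list, MRP8 at -0.34 and -0.80, was listed for its name and is not known to be a ribosomal protein.

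**Figure D3:**
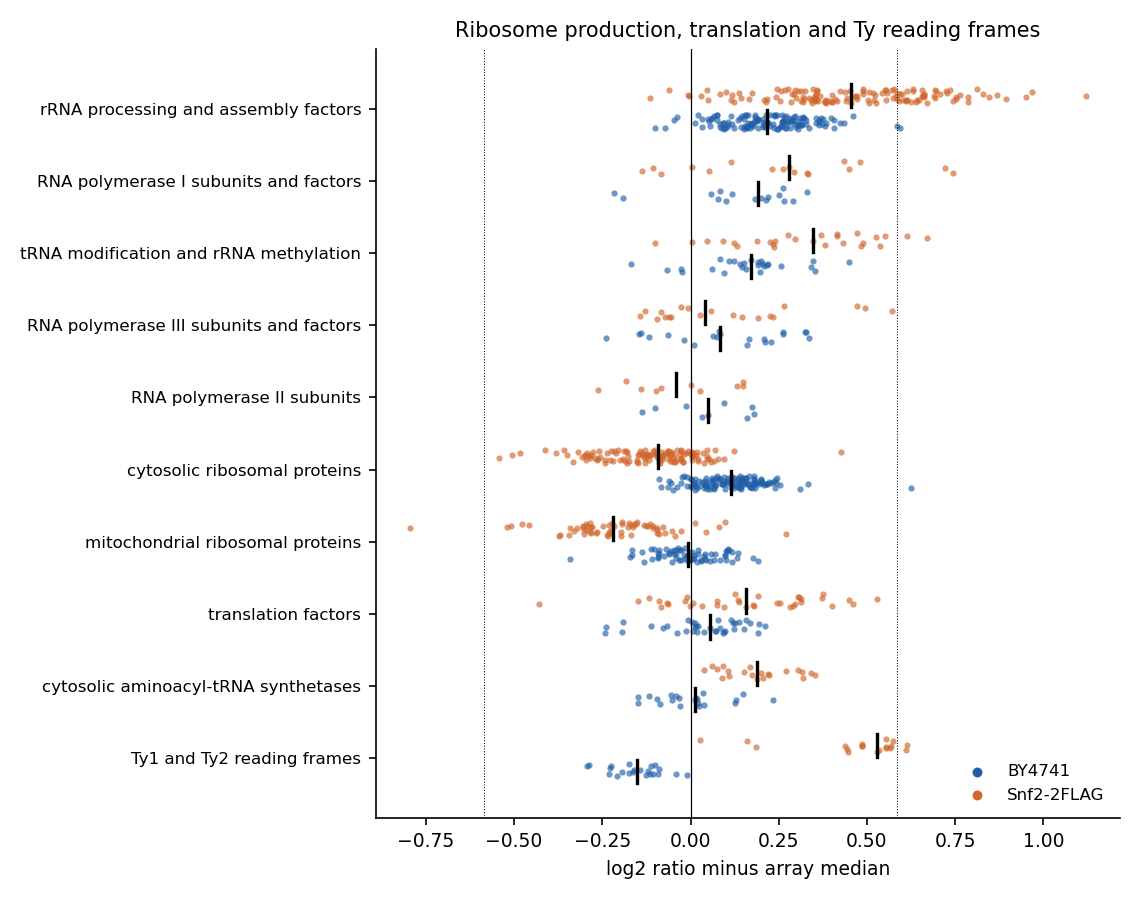
Log2 ratio minus array median (horizontal axis) for each measured member of 10 lists of ribosome production, translation and Ty elements, 1 point per gene, in BY4741 (blue) and Snf2-2FLAG (orange). Black bars mark list medians and dotted lines mark 1.5-fold. The assembly factors have medians of 0.22 and 0.46, the ribosomal proteins 0.12 and -0.09, and Ty reading frames lie on opposite sides of 0.

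Departures on Snf2-2FLAG alone were led by ribosome production on the high side. Of the 42 features higher on Snf2-2FLAG alone, 24, or 57.1%, were in the ribosome production lists, which held 3.79% of all features with both values and include RNA polymerase II subunits. Relative to genes of like coding length 8 of 17 were in these lists, with bounds set per array 3 of 5, and as deposited 70 of 147. The lists were chosen with earlier results of these data known, so these shares only describe the features. The highest of the 42 was OLE1 (YGL055W), the fatty acid desaturase, at 1.02 against 0.24 in BY4741. INA1 read 0.84 against 0.20, and KRE33, an acetyltransferase of rRNA, read 0.80 against 0.20. Of the 13 features lower on Snf2-2FLAG alone, 3 were in the energy metabolism lists, which held 2.00% of features. GRX2, a glutaredoxin, read -0.80 against -0.10 in BY4741. SDH2, a subunit of succinate dehydrogenase, read -0.69 against -0.11, and FES1, which releases nucleotide from Hsp70, read -0.65 against -0.18. BXI1 had the lowest value of the 13 at -0.82, against -0.21. TMC1 read -0.75 against -0.17, YPI1 -0.67 against -0.17, RGI1 -0.62 against -0.22 and YBR071W -0.60 against -0.17. Relative to genes of like coding length, these last 4 and FES1 no longer departed.

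Genes of respiration, redox balance and the proteasome lay below the median on Snf2-2FLAG and nearer to it on BY4741. The TCA cycle list had medians of -0.13 in BY4741 and -0.37 in Snf2-2FLAG. There 5 of 19 measured members departed downward, against 1.06% of all features. Aconitase (ACO1) read -0.29 and -0.60, the isocitrate dehydrogenase subunit IDH2 read -0.26 and -0.59, and citrate synthase CIT1 read -0.90 in Snf2-2FLAG with no value in BY4741. Genes of the respiratory chain and ATP synthase had medians of -0.04 and -0.31, with cytochrome c1 (CYT1) at -0.39 and -0.85. In the thioredoxin and glutathione systems the medians were -0.04 and -0.29, and 23 of 25 members lay below 0 in Snf2-2FLAG, with the peroxiredoxin PRX1 at -0.35 and -0.60. The 33 proteasome genes had medians of -0.08 and -0.32 with 0 departing on either array, and 31 lay below 0 in Snf2-2FLAG. PUP1, a core subunit, read -0.29 and -0.45. Ubiquitin and its conjugating genes had medians of -0.05 and -0.08, the latter 0.03 as deposited. The 10 histone genes had medians of -0.04 and -0.28, and HHF2, a histone H4 gene, read -0.07 and -0.44.

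Few genes departed on BY4741 alone at 1.5-fold, and of the 4 named ones RPS12 was in the lists used here. That limit was the same for 2 arrays of unlike spread. With bounds at the 1st and 99th percentile of each array the order reversed, to 28 features on BY4741 alone and 7 on Snf2-2FLAG alone. HEK2 (YBL032W), an RNA-binding protein that restrains translation of localised messages, read -1.18 in BY4741 and -0.06 in Snf2-2FLAG. Its value was the lowest of the BY4741 array. AAD3 (YCR107W), of the aryl-alcohol dehydrogenase family, had the highest at 1.25, against 0.15 in Snf2-2FLAG. The other family members measured in BY4741, AAD4, AAD6, AAD10, AAD14 and AAD15, read between -0.08 and 0.11, and were named after their values were seen. STN1 (YDR082W), a telomere-capping protein, read 0.89 against 0.19. RPS12 (YOR369C), a ribosomal protein gene, read 0.63 against -0.24. Each of these rests on a single probe per gene and a single deposited value per array.

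Reading frames of the Ty1 and Ty2 retrotransposons lay on opposite sides of the median on the arrays. All 22 Ty1 and Ty2 reading frames measured in BY4741 lay below 0, with a median of -0.15 and a range from -0.29 to -0.01. All 19 measured in Snf2-2FLAG lay above 0, with a median of 0.53 and a range from 0.03 to 0.61. YAR009C read -0.19 and 0.61, and YMR046C read -0.12 and 0.57. As deposited the medians kept these sides, at -0.27 and 0.63. The copies cross-hybridise, and the probes were read as 1 family signal. The Y prime helicases, which lie in the repeats beside telomeres, were below 0 on both arrays in all 27 cases, with medians of -0.33 and -0.18. Their copies are near-identical too. YRF1-6 read -0.44 and -0.37. The subtelomeric COS family had medians of -0.12 and -0.32. The 3 array genes nearest to each chromosome end had a median of -0.09 over 91 genes in BY4741 and of -0.03 over 86 in Snf2-2FLAG. Medians of the 16 chromosomes, read from the letter of the systematic name, ran from -0.04 to 0.02 in BY4741 and from -0.04 to 0.04 in Snf2-2FLAG.

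Nutrient and membrane genes were mostly near the median on both arrays. For 23 of the 55 lists both medians lay within 0.1 of 0, among them the phosphate regulon at 0.02 and 0.07, methionine and sulphur assimilation at -0.01 and -0.04, amino acid synthesis under Gcn4 at 0.04 and 0.02, and ergosterol synthesis at 0.01 and -0.06. SWI/SNF subunits had medians of -0.01 and -0.04 over 12 and 11 genes, and SNF2 read -0.19 in BY4741 with no value in Snf2-2FLAG. Purine synthesis had medians of 0.14 and 0.21, with ADE4, the first enzyme of the pathway, at 0.17 and 0.60. Copper genes had medians of 0.07 in BY4741, or -0.05 as deposited, and -0.17 in Snf2-2FLAG, where the metallothionein probes CUP1-1 and CUP1-2, which detect near-identical genes, read 0.12 and 0.01 in BY4741 and -0.47 and -0.49 in Snf2-2FLAG. Iron genes had medians of -0.10 and 0.07, with the cell wall mannoprotein gene FIT2 at -0.52 and 0.08. As deposited, 22 list medians in BY4741 and 12 in Snf2-2FLAG changed side, all of them within 0.12 of 0 after centring.

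Mating-type markers and strain markers carry little information in a ratio of a strain to itself, since it shows no level. The a-factor genes MFA1 and MFA2, defining for a cells, read 0.22 and -0.08 in BY4741 and -0.43 and -0.57 in Snf2-2FLAG. The list of 7 a-specific genes had medians of -0.057 and -0.006, with 3 members above 0 on each array. MF(ALPHA)1, specific to alpha cells, had no value in BY4741 and read 0.59 in Snf2-2FLAG, while MF(ALPHA)2 read 0.02 and 0.10. BY4741 carries deletions of LEU2, MET17 (MET15) and URA3 and a partial deletion of HIS3. All 4 probes nevertheless had a BY4741 value, between -0.02 and 0.33, so the presence of a value was not read as expression.

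**Figure D4:**
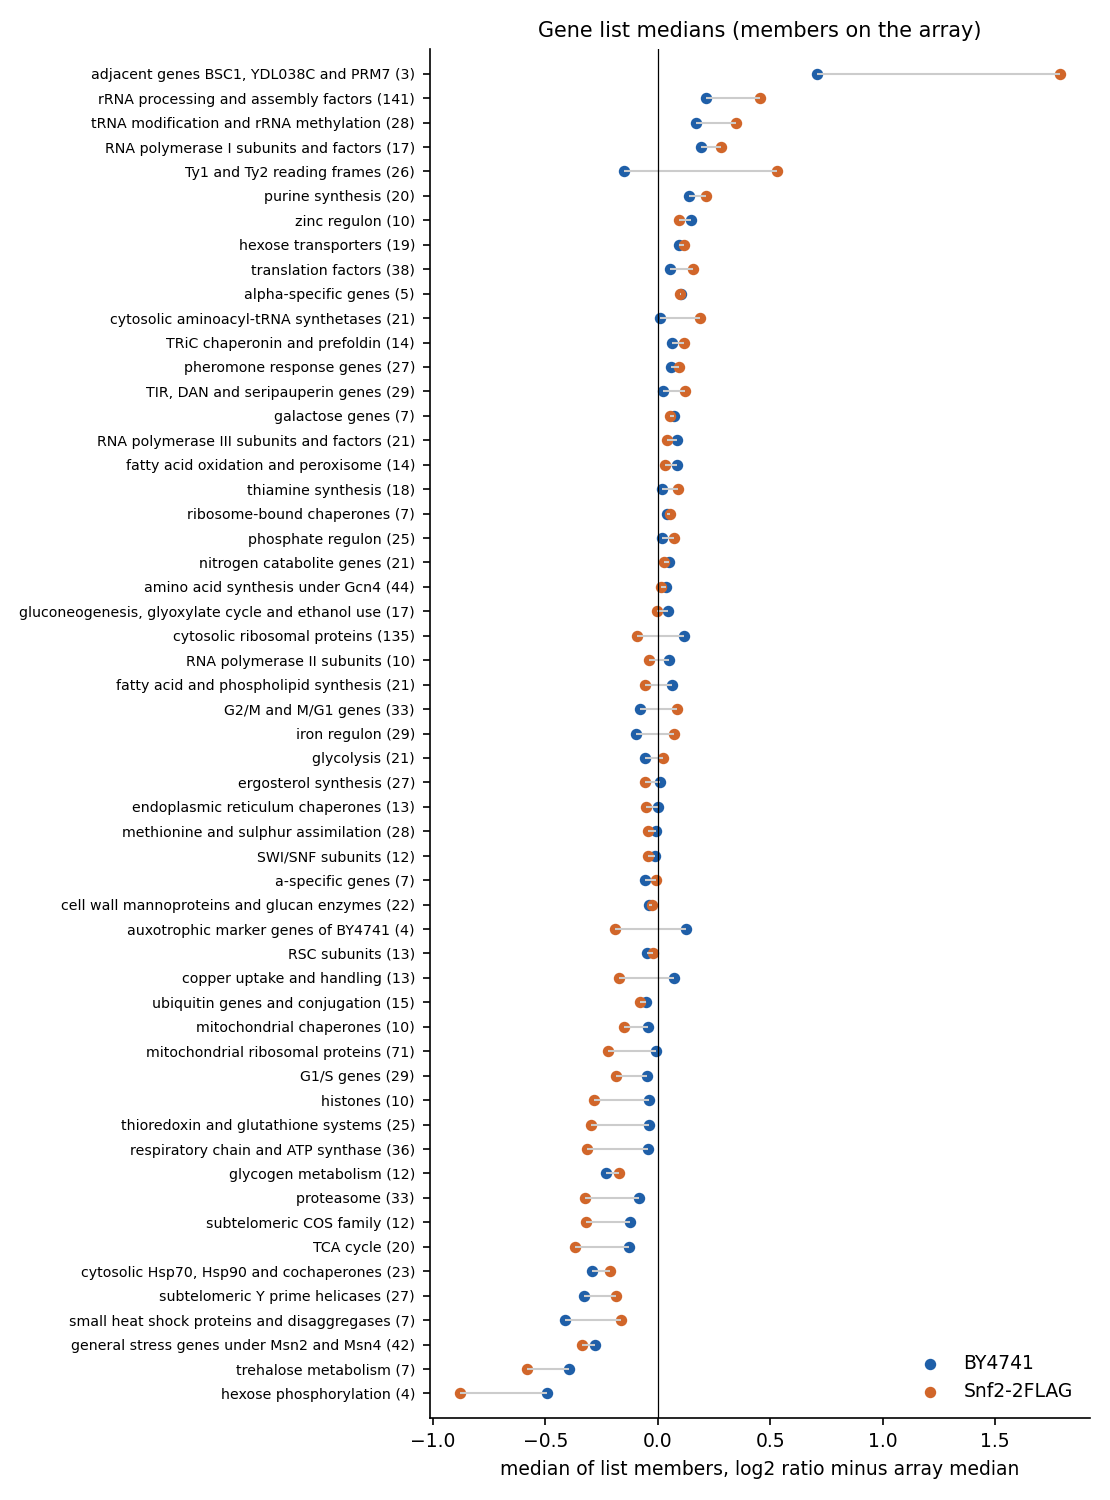
Median log2 ratio minus array median (horizontal axis) of the measured members of each of the 55 lists, with BY4741 in blue, Snf2-2FLAG in orange and a grey line joining the pair. The number of members on the array stands in parentheses. Lists are ordered by the sum of both medians, from hexose phosphorylation at -0.49 and -0.88 to the BSC1 group at 0.71 and 1.79.

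The arrays also differed by coding length, in opposite directions. In Snf2-2FLAG the shortest of 10 equal groups of genes, of 78 to 510 base pairs, had a median of -0.16 and the longest, of 2865 base pairs or more, one of 0.15. In BY4741 the same groups had medians of 0.04 and -0.08. Across genes, length correlated with the value with a Spearman rho of 0.43 in Snf2-2FLAG over 5111 genes and of -0.21 in BY4741 over 5223. These coefficients describe genes of a single array each. Histones, ribosomal proteins and many respiratory subunits are short and Ty reading frames are long, so each value was also taken minus the median of its own length group. On that basis the ribosomal proteins had medians of 0.09 in BY4741 and -0.01 in Snf2-2FLAG, the histones -0.08 and -0.12, the respiratory chain -0.07 and -0.17, the proteasome -0.09 and -0.26, and the Ty reading frames -0.12 and 0.42. In Snf2-2FLAG the general stress genes went from -0.34 to -0.22, the mitochondrial ribosomal proteins from -0.22 to -0.11, the thioredoxin and glutathione systems from -0.29 to -0.17 and the small heat shock proteins and disaggregases from -0.16 to -0.07. The rRNA factors had medians of 0.23 and 0.47 and the Hsp70 and Hsp90 list ones of -0.32 and -0.26. The count on Snf2-2FLAG alone dropped from 55 to 22, with 5 lower and 17 higher, while the count on both arrays went from 15 to 14. The lengths may include introns, so genes with introns, among them ribosomal protein genes, may sit in a longer group than their coding sequence would give. The part of length in each result was not tested further.

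**Figure D5:**
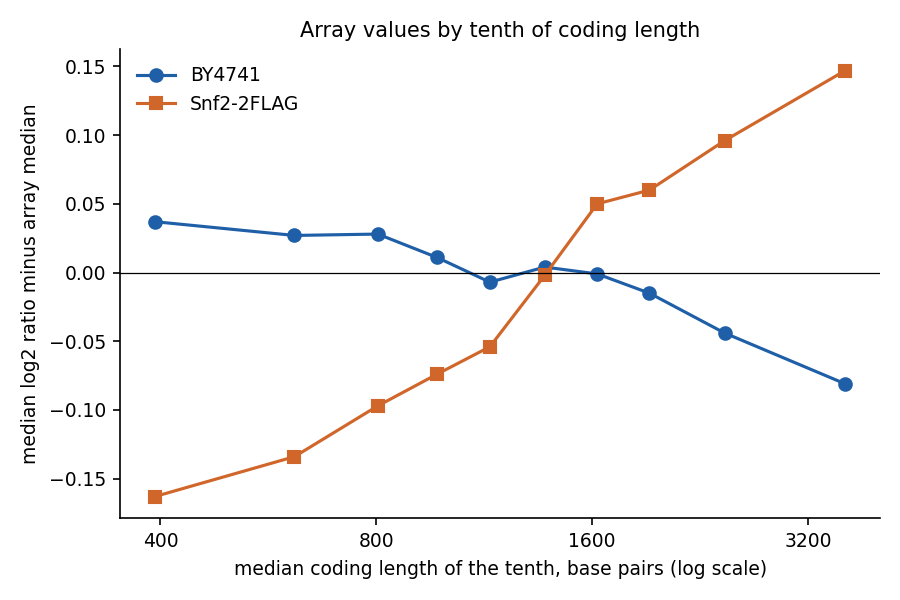
Median log2 ratio minus array median (vertical axis) for 10 equal groups of genes by coding length in base pairs (horizontal axis, log scale), in BY4741 (blue circles) and Snf2-2FLAG (orange squares). The Snf2-2FLAG medians climb from -0.16 to 0.15 with length and the BY4741 medians go from 0.04 to -0.08.

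Over all 5407 features with both values, Pearson's r between the arrays was 0.45 and Spearman's rho was 0.34. The points are genes on 2 arrays of the same platform and are not independent, so these coefficients only describe the pair. With each value taken relative to its length group, r was 0.58. Without the chaperone, stress and ribosome production lists it was 0.36, and without features past 1.5-fold on either array it was 0.34.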

How the data were processed

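Poly(A) RNA was compared on 2-colour arrays. Per the labels' protocols, RNA was extracted with hot phenol, polyadenylated Bacillus subtilis transcripts were added according to culture density, and cDNA was coupled to Cy3 and Cy5. The labels name 2 scans of opposite dye orientation per sample. The deposited values hold 1 number per probe and were read as log2 ratios of channel 1 to channel 2. Their base, centring, background correction and filters, and how the scans were combined, are not given in the sources used here, nor whether the channels held RNA of separate cultures. Depth does not apply, and the number of arrays, 1 per strain, limits the precision.

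Through the platform annotation 5578 of 6226 probes carried 1 gene name, 648 carried none and no probe carried more. The R64 gene table held 5573 of these named probes by gene number and gave their current symbols, and 5 kept the older name. Probes of 30 genes were averaged, which gave 6195 features with 5547 named genes. Lengths came from the same table for 5542 genes, and 96.8% are multiples of 3. The others are not, so the lengths of some genes may include introns. Coding length here means the length in that table. No coordinates or sequences are given.

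Each array was centred on its median. Genes named are the 12 lowest and 12 highest on both arrays by the smaller of their sizes, up to 8 per direction of each class on 1 array alone, the 6 largest differences between the arrays, and up to 4 members of each of 55 lists. Other genes were chosen with their values in view. The members, lists and limits were chosen with earlier results of these data known. The classification was tested on simulated data. Alternatives covered the fold, the limit on the other array, centring, probe averaging, unnamed probes and bounds per array. Corrections for coding length and for probe number, and a correlation without some lists, were added after seeing the data. Python 3.11.15, numpy 2.4.6, pandas 2.3.3, scipy 1.17.1 and matplotlib 3.10.9 were used.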

Additional observations from a re-analysis of the deposited data

Results flagged for a closer look

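The following results lay on opposite sides of the array median in the 2 strains. Each strain had 1 array, the difference was not tested, and all differences are BY4741 minus Snf2-2FLAG on the log2 scale. HSP12 read -0.41 and 0.78, a difference of -1.19. The Ty1 and Ty2 reading frames had medians that differed by -0.68, and their probes share signal. The auxotrophic marker genes differed by 0.32, over 4 and 3 probes, of genes wholly or partly deleted in BY4741. Copper genes differed by 0.24 and ribosomal proteins by 0.21. The iron genes differed by -0.17 and the genes of G2/M and M/G1 by -0.16. Fatty acid and phospholipid genes differed by 0.12. As deposited, the BY4741 medians of the copper, ribosomal protein and fatty acid lists lay below 0, and the Snf2-2FLAG medians of the last 2 lay above it. Relative to genes of like coding length the medians drew closer for several lists. They were 0.05 and -0.06 for copper genes, -0.05 and 0.02 for G2/M and M/G1 genes, 0.12 and -0.06 for the marker genes, and 0.09 and -0.01 for ribosomal proteins.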

How the results depend on the processing

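The 15 features that departed on both arrays became 2 at 2-fold, 69 at 1.3-fold and 37 with bounds at the 1st and 99th percentile of each array. The 6 on BY4741 alone became 3, 40 and 28 in the same order, 11 as deposited, and 2 with a limit of 1.1-fold on the other array. The 55 on Snf2-2FLAG alone became 1 at 2-fold, 381 at 1.3-fold, 7 with bounds per array, 148 as deposited, 128 with a limit of 1.5-fold on the other array, 12 with one of 1.1-fold, and 22 relative to genes of like length. A single feature, HSP12, departed in opposite directions at 1.3-fold, against 0 at 1.5-fold. Centring on the mean, single probes, named genes alone and correction for probe number kept these counts within 1.5 times. Block medians along the probe number, whose meaning is not stated, ran from -0.06 to 0.05 in BY4741 and from -0.03 to 0.03 in Snf2-2FLAG. The correlation of 0.45 was 0.34 by Spearman, 0.34 without features past 1.5-fold, 0.58 relative to like length and 0.36 without the stress and ribosome lists. The cause of these shifts was not tested beyond what each alternative changes. The number of lists with both medians at least 0.2 from 0 on the same side was 6, and 6 to 8 under the alternatives run. No list median of at least 0.2 and no departing named gene changed sign. A planned search for promoter motifs was not run because no promoter sequence was at hand. No paired analysis was possible because each strain had 1 array. Signal over background is unknown, so weak probes could not be set apart.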

Other observations

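Some features had a value on 1 array and none on the other, 401 on BY4741 and 262 on Snf2-2FLAG. Among them TMA10 departed in BY4741 at -0.61. In Snf2-2FLAG, HCA4, a helicase of rRNA processing, read 0.83, OPI10 read -0.68 and FPT1 read -0.65. Apart from HSP12, only 2 named genes with values past 1.2-fold on both arrays read low in BY4741 and high in Snf2-2FLAG. These were PHO92, an RNA-binding protein, at -0.34 and 0.64, and the Ty reading frame YHR214C-B at -0.29 and 0.49. STE18, the gamma subunit of the pheromone-response G protein, was the single named gene in the opposite arrangement, at 0.27 and -0.31. SRO9, a protein that binds RNA, read -0.11 in BY4741 and 0.77 in Snf2-2FLAG. The genes in this paragraph were picked after their values were seen.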
